A study of Mus musculus with 2 samples.

Results

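The 10 genes described here are neighbours of H19 on distal mouse chromosome 7, selected by symbol from a table of 24421 rows: Tollip, Mob2, Dusp8, Syt8, Lsp1, Tnnt3, Tspan32, Cd81, Tssc4 and Nap1l4. H19 itself, Igf2 and the Kcnq1ot1-domain genes Ascl2, Cdkn1c and Phlda2 were left out of the set. The study sequenced total RNA of whole ovaries depleted of ribosomal RNA, to find ovarian genes that depend on H19. It held 1 wild-type library and 1 library of the genotype H19KO, both labelled C57BL/6J and 8 weeks old with no treatment. The labels describe the knockout as H19(Δ3), and do not give the parental origin of the allele, whether it was homozygous, or whether ovaries were pooled. Since each genotype is 1 library, there is no replicate error to set a difference against, p-values cannot be given, and each comparison describes these 2 libraries. In whole ovary RNA, fewer cells of a type and less RNA per cell cannot be told apart.

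H19 is a long noncoding RNA made from the maternal chromosome, and its neighbour Igf2 is expressed mainly from the paternal one. A control region between them binds the insulator protein CTCF on the maternal copy, which keeps Igf2 from enhancers that lie beyond H19. H19(Δ3) is the name of a targeted deletion of the H19 transcription unit that leaves this control region in place. Of the 10 genes, 6 lie on the enhancer side of H19 and 4 on the Igf2 side, towards or within the Kcnq1 region. Cd81, Tssc4, Tspan32 and Nap1l4 have been reported as imprinted in the mouse placenta, so the description non-imprinted applies to them at most outside that organ. All 10 are protein-coding. In mm10 coordinates of GENCODE M21, the genes of the enhancer side are Tollip (chr7:141874813-141918507, minus strand), Mob2 (chr7:142008535-142061065, minus), Dusp8 (chr7:142079490-142095843, minus), Syt8 (chr7:142434850-142440396, plus), Lsp1 (chr7:142460809-142494867, plus) and Tnnt3 (chr7:142498836-142516009, plus). H19 follows at chr7:142575529-142578143 on the minus strand. Those of the Igf2 side are Tspan32 (chr7:143005046-143019644, plus), Cd81 (chr7:143052739-143067934, plus), Tssc4 (chr7:143069249-143071093, plus) and Nap1l4 (chr7:143513579-143549106, minus). The counts carry no allele information and imprinting was not measured.

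The wild-type library held 23335131 counts and the knockout library 23041225. The targeted gene H19 had 672 counts in the wild-type library and 0 in the knockout. With 3 counts, or 0.130 counts per 1e6 scaled counts (CPM), allowed for the 0, the H19 level of the knockout was 223-fold lower or more. The counting error of the 672 counts is not in this bound. The exact 95% interval of the log2 ratio of knockout to wild type, which includes it, ended at -7.50, a weaker bound. Igf2 had 275 counts in the wild-type library and 632 in the knockout. Its log2 ratio of knockout to wild type was 1.21, with a 95% interval of 1.00 to 1.42. All intervals here are exact and span counting error alone, with no share for variation between mice or between library preparations. As a check of the tissue, the 5 granulosa cell markers examined summed to 1372 CPM in the wild-type library and 953 in the knockout, and the 6 oocyte markers to 255 and 201. The 3 luteal markers summed to 2199 and 1785 CPM. Cyp17a1, the androgen-making enzyme of theca cells, lay beyond 2-fold with 11243 and 2834 counts (-1.98, -2.04 to -1.92), as did the granulosa cell aromatase Cyp19a1 with 1052 and 345 (-1.60). Ovgp1, a marker of the adjoining oviduct, had 33 and 134 counts (2.01, 1.47 to 2.63). The other listed oviduct markers, both below 1 CPM, did not share this difference. Pax8 had 9 and 9 counts and Foxj1 11 and 3, with intervals spanning 0. The ratios of Cyp17a1, Cyp19a1 and Ovgp1 lay farther from 0 than that of any measured member. This did not hold for every marker. Cyp11a1, the other listed theca marker, had 97106 and 95277 counts (-0.02). Prlr (-0.18), Gdf9 (-0.15) and Ddx4 (-0.25) also lay nearer 0 than the member Tssc4 (-0.27). The part of such marker differences in the members' values was not tested.

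The 10 genes ranged from an abundant membrane protein gene to genes at a handful of counts, and their order by level was the same in both libraries. To compare genes, CPM was divided by the summed length of annotated exons in kb. Cd81, a tetraspanin that organises partner proteins in the plasma membrane, was highest, at 167 CPM per kb in the wild-type library and 176 in the knockout. Nap1l4, a histone chaperone of the nucleosome assembly protein family, followed at 38.1 in the wild-type library and 36.3 in the knockout. Tollip, an endosomal adaptor that restrains Toll-like and interleukin-1 receptor signalling, stood at 16.4 and 14.5. Tssc4, a factor in assembly of spliceosomal ribonucleoproteins, had 10.4 and 8.56, and Lsp1, an actin-binding protein of leukocytes, 6.55 and 7.61. The counting intervals of Tssc4 and Lsp1 overlapped in the knockout library but not in the wild type. Mob2, a regulator of NDR kinases, had 3.82 and 3.54 CPM per kb. Dusp8, a phosphatase of the stress-activated MAP kinases, had 0.998 and 0.968. Each of these 7 genes down to Dusp8 was separated from the next in the order beyond counting error, apart from Tssc4 and Lsp1 in the knockout.

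The last 3 genes were at the limit of detection. Tnnt3, the fast skeletal muscle troponin T, had 0.163 CPM per kb in the wild-type library and 0.492 in the knockout. Tspan32, a tetraspanin of blood cells, had 0.103 and 0.132, and Syt8, a synaptotagmin-family membrane protein, 0.0681 and 0.0228. The intervals of Tspan32 and Syt8 overlapped in both libraries, and those of Tnnt3 and Tspan32 in the wild type. A mean of at least 1 CPM over both libraries was required before a ratio was counted, and 7 of the 10 genes reached it. Dusp8 was the lowest gene inside that limit, at 4.86 and 4.71 CPM, and Tspan32 the highest outside it, at 0.645 and 0.822. Levels per kb depend on which annotated exons are used, which was not varied.

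**Figure D1:**
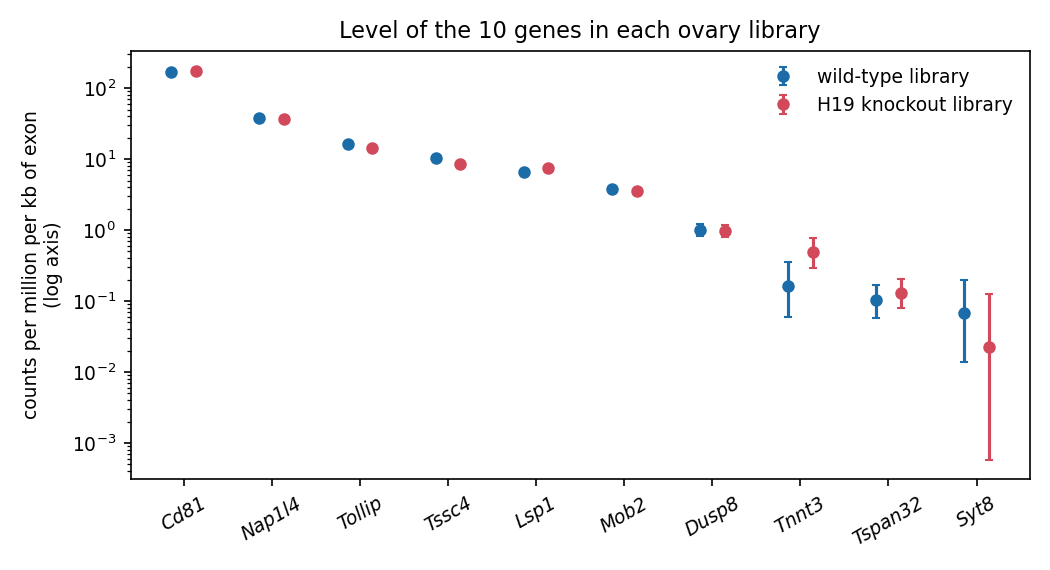
Level of each of the 10 genes in the wild-type (blue) and H19 knockout (red) ovary library, in CPM per kb of annotated exon on a log axis, ordered by mean level, with 95% exact Poisson counting intervals that are smaller than the points for abundant genes. The pairs of points lie close together from Cd81 (167 and 176) to Dusp8 (0.998 and 0.968), and the intervals widen for Tnnt3, Tspan32 and Syt8.

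Promoter sequences from RefSeq (GRCm38.p6) were used for 7 of the 10 genes. Those of Lsp1, Nap1l4 and Tnnt3 are not shown here. Each sequence runs from 250 bases before to 50 bases after a RefSeq start site. They are shown because, among these 7 genes, CpG content differed between those at or above 1 CPM and those below it. Capitals mark every CG dinucleotide. The RefSeq start site used for Tollip lies inside its GENCODE gene, 16046 bases from the start of that gene. The windows are chr7:143052500-143052799 (plus strand) for Cd81, chr7:141902412-141902711 (minus) for Tollip, chr7:143069118-143069417 (plus) for Tssc4, chr7:142095235-142095534 (minus) for Dusp8, chr7:143004796-143005095 (plus) for Tspan32 and chr7:142434600-142434899 (plus) for the first of 3 starts of Syt8.
Cd81: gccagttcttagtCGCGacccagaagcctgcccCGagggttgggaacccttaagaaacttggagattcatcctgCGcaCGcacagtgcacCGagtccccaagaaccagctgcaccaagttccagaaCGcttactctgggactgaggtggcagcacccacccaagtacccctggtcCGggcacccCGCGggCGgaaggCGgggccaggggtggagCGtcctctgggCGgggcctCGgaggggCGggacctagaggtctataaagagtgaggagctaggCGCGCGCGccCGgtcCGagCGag
Tollip: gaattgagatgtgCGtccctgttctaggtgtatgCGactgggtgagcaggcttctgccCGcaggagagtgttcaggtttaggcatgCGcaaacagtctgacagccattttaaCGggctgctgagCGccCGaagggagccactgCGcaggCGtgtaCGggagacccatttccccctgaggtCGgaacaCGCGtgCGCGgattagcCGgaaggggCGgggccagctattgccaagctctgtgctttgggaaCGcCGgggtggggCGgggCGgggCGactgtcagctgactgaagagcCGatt
Tssc4: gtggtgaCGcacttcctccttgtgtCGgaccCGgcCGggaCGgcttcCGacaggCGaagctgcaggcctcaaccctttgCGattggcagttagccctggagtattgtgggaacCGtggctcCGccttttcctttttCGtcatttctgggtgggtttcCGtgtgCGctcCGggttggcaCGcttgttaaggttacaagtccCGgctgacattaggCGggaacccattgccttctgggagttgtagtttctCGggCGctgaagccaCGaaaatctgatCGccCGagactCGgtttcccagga
Dusp8: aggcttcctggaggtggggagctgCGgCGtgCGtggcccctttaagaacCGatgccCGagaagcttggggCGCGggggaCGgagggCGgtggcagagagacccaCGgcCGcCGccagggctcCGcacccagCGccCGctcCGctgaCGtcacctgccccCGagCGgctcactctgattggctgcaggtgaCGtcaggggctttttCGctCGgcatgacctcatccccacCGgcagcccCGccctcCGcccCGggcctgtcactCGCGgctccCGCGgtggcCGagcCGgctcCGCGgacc
Tspan32: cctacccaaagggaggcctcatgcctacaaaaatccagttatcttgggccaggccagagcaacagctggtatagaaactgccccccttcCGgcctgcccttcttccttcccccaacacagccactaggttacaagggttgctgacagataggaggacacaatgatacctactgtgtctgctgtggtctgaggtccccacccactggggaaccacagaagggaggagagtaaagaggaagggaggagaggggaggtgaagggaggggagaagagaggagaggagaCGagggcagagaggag
Syt8: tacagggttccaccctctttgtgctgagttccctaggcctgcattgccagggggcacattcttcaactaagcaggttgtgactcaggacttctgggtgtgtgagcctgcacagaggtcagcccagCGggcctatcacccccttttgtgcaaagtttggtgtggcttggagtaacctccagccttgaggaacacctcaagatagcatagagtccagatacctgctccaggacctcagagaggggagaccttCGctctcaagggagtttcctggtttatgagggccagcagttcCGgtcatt

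The windows of Cd81, Tollip and Tssc4 each held 23 CG dinucleotides and that of Dusp8 held 34. Over 32841 RefSeq promoter windows of the same length the median was 7, with quartiles at 3 and 20. Tspan32 held 2 and the first start of Syt8 3, and its other starts 3 and 2. Of the 4 starts of Mob2, 3 held 28, 48 and 28, and the remaining start, 35106 bases inside the GENCODE gene, 3. The 5 matched genes at or above 1 CPM thus each had a start with at least 23, and the 2 matched genes below it had none above 3. This describes 7 genes and is no test. A total of 5 short motifs were searched on both strands, and no match overlapped one of another motif. The TATA box TATAAA occurred in Cd81 and in no other member window, against 13.6% of all windows. The GC box GGGCGG occurred 3 times each in Cd81, Tollip and Dusp8, 1 to 3 times in each Mob2 window, and in 35.7% of all windows at least once. The cAMP response element TGACGTCA, which reads the same on both strands, occurred 2 times in Dusp8, against a share of 1.79% of windows with any. The PU.1 core GAGGAAG occurred 1 time in Tspan32 and 1 time in Tssc4, against 13.6% of windows with any. The E-box CAGCTG occurred 1 time each in Cd81, Tollip and Tspan32 and 2 times at the CG-poor start of Mob2, against 16.3% of windows with any. A match is a description of these letters and shows no binding.

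None of the 7 measured genes differed 2-fold between the libraries. Of all 13928 measured genes, 0.998% had an interval wholly beyond 2-fold in either direction. Of the 7, Lsp1 and Cd81 had an interval above 0, Tssc4 and Tollip an interval below 0, and Mob2, Dusp8 and Nap1l4 an interval spanning 0. Over all measured genes, 22.2% had an interval above 0 and 24.0% below, so 2 of 7 in each direction lies close to the background. The median log2 ratio of the 7 was -0.07, beside -0.01 for all measured genes. Their median distance from 0 was 0.11, beside 0.15.

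Cd81 had 11155 counts in the wild-type library and 11727 in the knockout. The knockout value was the higher by a log2 ratio of 0.08, with an interval of 0.04 to 0.12. The narrow interval reflects the large counts. Of 324 genes with a mean CPM within 1.5-fold of that of Cd81, 78.4% had an interval that excluded 0 and 57.4% had a ratio at least as far from 0. The Cd81 row shares 104 exonic bases with the antisense transcript R74862, which had 112 and 110 counts. Tspan32, the other tetraspanin of the set, had 15 counts in the wild-type library and 19 in the knockout. Its log2 ratio of 0.34 had an interval of -0.71 to 1.43, so a difference in either direction was not detectable at this depth. Tspan32 shares 271 exonic bases with Tspan32os on the opposite strand.

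The signalling regulators Tollip, Dusp8 and Mob2 each had the lower count in the knockout library, by small amounts. Tollip had 1928 counts in the wild-type library and 1700 in the knockout, for a log2 ratio of -0.17 (-0.27 to -0.08). Among 2680 genes of similar level, 31.8% had a ratio at least as far from 0. Mob2 had 555 and 511 counts, for a log2 ratio of -0.11 (-0.29 to 0.06). Dusp8 had 113 and 109 counts, for a log2 ratio of -0.04 (-0.44 to 0.35). The intervals of Mob2 and Dusp8 hold both equality and a lower level of the size seen for Tollip.

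The nuclear factors Tssc4 and Nap1l4 were also the lower in the knockout library, Tssc4 with an interval that excluded 0. Tssc4 had 444 counts in the wild-type library and 365 in the knockout, for a log2 ratio of -0.27 (-0.48 to -0.07), the farthest from 0 among the 7 measured genes. Among 2464 genes of similar level, 27.0% had a ratio at least as far from 0. Tssc4 shares 220 exonic bases, 11.9% of its exons, with Trpm5 on the opposite strand, which had 7 and 8 counts. Nap1l4 had 2742 and 2600 counts, for a log2 ratio of -0.07 (-0.15 to 0.01).

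Lsp1 stood higher in the knockout library. There were 788 counts in the wild-type library and 911 in the knockout, for a log2 ratio of 0.22 (0.08 to 0.36). Among 3172 genes of similar level, 28.3% had a ratio at least as far from 0, and 47.3% had an interval that excluded 0. Beside it, 14 of the 21 listed leukocyte markers were measured, of which 11 had an interval above 0, 2 (Csf1r and Cd4) below and 1 (Cd53) spanning it. Over all measured genes the shares were 22.2% above and 24.0% below. The median log2 ratio of the 14 was 0.34. Among the 7 markers below 1 CPM, Cd37 with 29 and 13 counts and S100a8 with 22 and 4 had intervals below 0, and these 2 were picked out after their values were seen. The summed level of all 21 listed markers was 342 CPM in the wild-type library and 402 in the knockout, and none was at 0 in either library. The actin-bundling leukocyte gene Lcp1 had 1813 and 2321 counts, for a log2 ratio of 0.36 (0.28 to 0.45), and the lysosomal gene Laptm5 646 and 794 (0.31). Cd68, a macrophage marker, had 1093 and 1278 counts (0.23). Csf1r, the macrophage growth factor receptor, went the other way, with 1451 and 1223 counts (-0.24), as did the T cell coreceptor Cd4, with 127 and 93 (-0.44). The part of leukocyte RNA in the Lsp1 value was not tested.

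Tnnt3 and Syt8, the 2 members below 1 CPM on the enhancer side, gave little information. Tnnt3 had 6 counts in the wild-type library and 18 in the knockout, for a log2 ratio of 1.52 with an interval of 0.20 to 3.21. The interval excludes 0, but the mean of 0.518 CPM was below the limit and the gene is not counted among those above 0. Skeletal muscle markers were scarce in both libraries. Of 11 listed, 2 reached 1 CPM, Actn3 with 67 and 79 counts and Mylpf with 36 and 20. The 11 summed to 6.92 CPM in the wild-type library and 7.09 in the knockout, and Myh4 had no count in either. Tnni2, the fast troponin I gene between Syt8 and Lsp1, had 20 and 21 counts. Syt8 had 3 counts and 1 count, which are at or below the 3 counts allowed here for a count of 0, so no ratio is given.

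**Figure D2:**
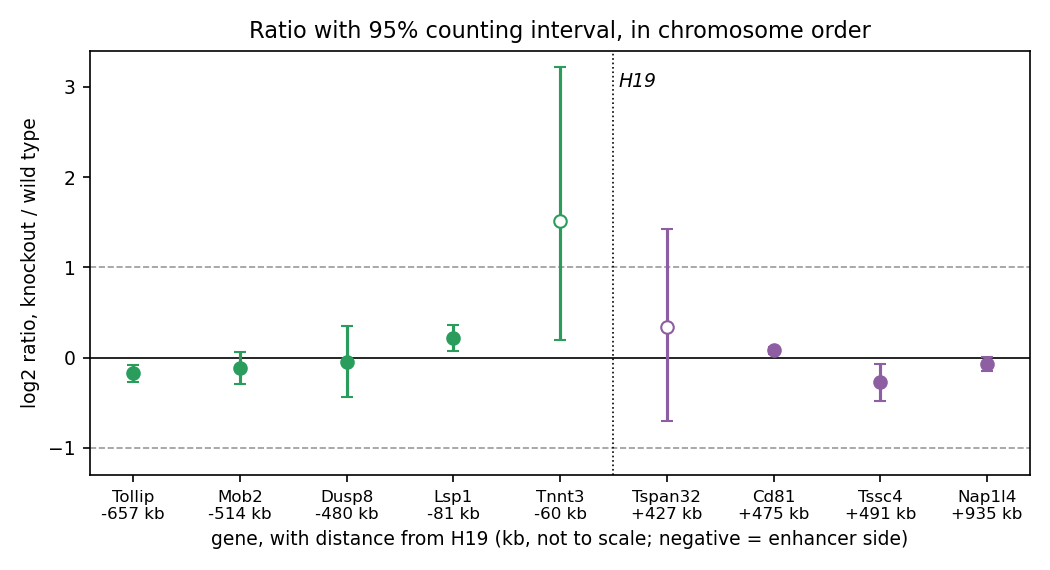
Log2 ratio of knockout to wild type with its 95% counting interval for 9 of the 10 genes, in chromosome order on the enhancer side (green) and the Igf2 side (purple) of H19, with open points for genes below 1 CPM, dashed lines at 2-fold and Syt8 left out. The filled points lie between -0.27 (Tssc4) and 0.22 (Lsp1), and the open point of Tnnt3 has an interval from 0.20 to 3.21.

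Neither side of H19 held a measured member with a large ratio. Distances are gaps between gene bodies. On the enhancer side Lsp1 lay 80.7 kb from H19, Dusp8 480 kb, Mob2 514 kb and Tollip 657 kb. Only the nearest of these 4 had an interval above 0, and the farthest had an interval below 0. On the Igf2 side Cd81 lay 475 kb from H19, Tssc4 491 kb and Nap1l4 935 kb. Cd81 and Tssc4 are adjacent, and their intervals lay on opposite sides of 0. The 4 measured members of the enhancer side had a median log2 ratio of -0.08 and the 3 of the Igf2 side -0.07. Over all 8 measured genes within 1 Mb on the enhancer side, those 4 included, the median was 0.09, with 3 intervals above 0 and 1 below. Over the 9 on the Igf2 side it was -0.06, with 2 above and 2 below. Over all measured genes the shares were 22.2% above and 24.0% below.

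The wider neighbourhood was taken by position from the annotation. Within 1 Mb of H19 on either side there were 48 rows besides H19, of which 17 were measured and 10 had no count in either library. The 17 include the 7 members. Of the 17, 5 had an interval above 0 (29.4%), 3 below (17.6%) and 9 spanning it, beside 22.2% above and 24.0% below over all measured genes. Igf2 was the only gene of the 17 whose interval lay beyond 2-fold. The lower end of the Igf2 interval, 1.002, was so near the limit that a change of scaling can move it across. Igf2 shares 62.8% of its exonic bases with Gm49394 on the same strand. The median log2 ratio of the 17 was -0.03, but its sign depended on the window and on the summary used: the mean was 0.07. The 6 measured genes that are neither members nor of the imprinted domains had a median of 0.10, with 2 intervals above 0 and none below. Among genes 1 to 3 Mb away, 57 were measured, with 17 above 0 (29.8%), 10 below (17.5%) and a median of 0.06. None of those 57 had an interval beyond 2-fold. Over the remaining 933 measured genes of chromosome 7 the median was -0.04, with 8 beyond 2-fold on the higher side and 4 on the lower.

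The nearest measured genes around the members had values of their own. On the enhancer side Mrpl23, a mitochondrial ribosomal protein gene 34.8 kb from H19, had 215 counts in the wild-type library and 254 in the knockout, for a log2 ratio of 0.25 (-0.02 to 0.52). Ctsd, the lysosomal protease gene next to Syt8, had 15637 and 18051 counts (0.22, 0.18 to 0.25). Lsp1 lies between Ctsd and Mrpl23, and the 3 point ratios ranged from 0.22 to 0.25. Muc5b, a mucin gene beyond Tollip, had 154 and 244 counts (0.67, 0.38 to 0.97), while Tollip itself was the lower in the knockout. On the Igf2 side Kcnq1, a potassium channel gene next to Tssc4, had 207 and 143 counts (-0.52, -0.84 to -0.21). Cdkn1c, a cell cycle inhibitor before Nap1l4, had 317 and 275 (-0.20, -0.44 to 0.04), and Cars, a tRNA synthetase gene after it, 958 and 915 (-0.06, -0.19 to 0.07).

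**Figure D3:**
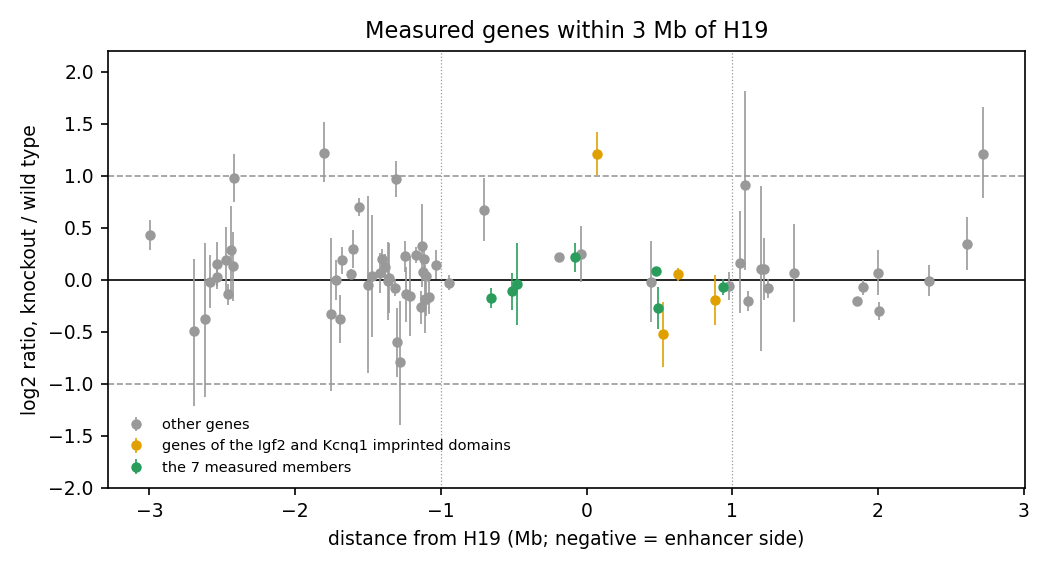
Log2 ratio of knockout to wild type with its 95% counting interval for every measured gene within 3 Mb of H19, against distance in Mb, with members in green, genes of the Igf2 and Kcnq1 imprinted domains in yellow, others in grey, dashed lines at 2-fold and dotted lines at 1 Mb. The green points lie between -0.27 and 0.22, and Igf2 at 1.21 is the highest gene within 1 Mb.

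**Figure D4:**
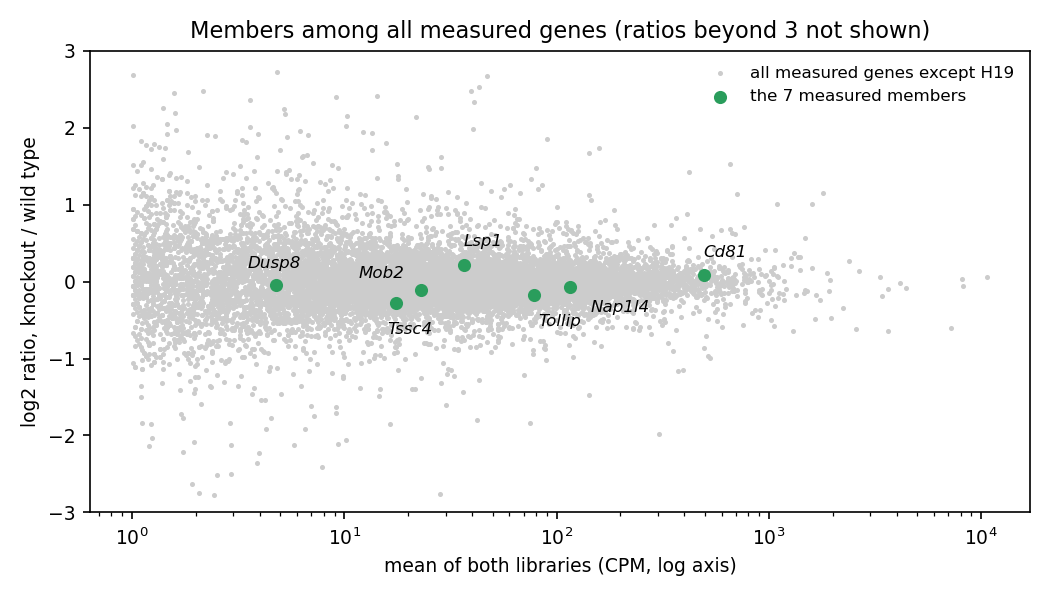
Log2 ratio of knockout to wild type against the mean CPM of both libraries on a log axis for all measured genes except H19 (grey) and the 7 measured members (green). The members lie between log2 ratios of -0.27 and 0.22, from Dusp8 (4.86 and 4.71 CPM) to Cd81 (480 and 507 CPM).

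Families and partners of the members were described in the same way. Of 25 tetraspanin genes, 23 were measured, with a median log2 ratio of 0.08. An interval above 0 was found for 9 (39.1%) and below for 3 (13.0%), beside 22.2% and 24.0% over all measured genes. Tspan11 was the only tetraspanin beyond 2-fold, with 351 counts in the wild-type library and 976 in the knockout (1.48, 1.31 to 1.66). Cd151, the next most abundant after Cd81, had 5721 and 5844 counts (0.04, -0.01 to 0.09). Cd9, which binds many of the same partners as Cd81, had 2287 and 2636 (0.21, 0.13 to 0.29). Of 10 partners of CD81, 9 were measured, and 8 of these had an interval above 0 and none below, beside 22.2% above 0 over all measured genes. That share takes no account of level. Among genes with a mean CPM within 1.5-fold of that of Cd81, 78.4% had an interval that excluded 0 in either direction. The measured partners spanned a wider range, from Itga4 (17.5 and 20.5 CPM) to Itgb1 (761 and 805). The share that excluded 0 was 56.5% around the level of Tollip (82.9 and 73.5 CPM). Around that of Tssc4 (19.1 and 15.8 CPM) it was 41.3%. Of the partners, Ifitm1, Ifitm2 and Ifitm3 lie 1 to 3 Mb from H19 and are counted in that window too. The integrin subunit Itgb1 had 17702 and 18606 counts (0.08), close to the ratio of Cd81, and Ptgfrn, a direct partner, had 3142 and 3928 (0.33). Cd9 is in both lists.

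The lists around Tollip, Dusp8, Nap1l4 and Mob2 held genes in both directions. Over all measured genes, 22.2% had an interval above 0 and 24.0% below. All 18 genes of Toll and interleukin-1 signalling were measured, with 6 above 0, 3 below and a median of 0.14. Tollip was among the 3 below, as was the ubiquitin ligase Traf6 with 1836 and 1688 counts (-0.11), while the kinase gene Irak1 had 3874 and 4016 (0.06). Of 9 measured MAP kinase phosphatases, 1 lay above 0 and 3 below, with Dusp1 at 0.48 (0.36 to 0.59) and Dusp7 at -0.44 (-0.55 to -0.33). In the 9 nucleosome assembly protein genes, 2 lay above 0 and 2 below. Nap1l1, a paralogue of Nap1l4, had 5591 and 5842 counts (0.07), and Nap1l5, itself an imprinted gene, 3536 and 2646 (-0.41, -0.48 to -0.34). Of 16 MOB, NDR and Hippo pathway genes, 2 lay above 0, 3 below and 11 spanning it. Among them Sav1, a scaffold of the Hippo kinases, had -0.35 and Lats1 -0.04.

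Troponins and synaptotagmins other than Tnnt3 and Syt8 were found in ovary RNA. Tnni3, the cardiac troponin I gene, had 2109 counts in the wild-type library and 2168 in the knockout (0.05, -0.04 to 0.13). All 3 measured troponins of 8 had an interval spanning 0. Of 10 measured synaptotagmins, 2 lay above 0 and 1 below, beside 22.2% and 24.0% over all measured genes. Syt7, a calcium sensor of lysosome exocytosis, had 2089 and 1411 counts (-0.56, -0.66 to -0.46), and Syt1, a calcium sensor of vesicle release, 103 and 253 (1.30, 0.97 to 1.65).

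**Figure D5:**
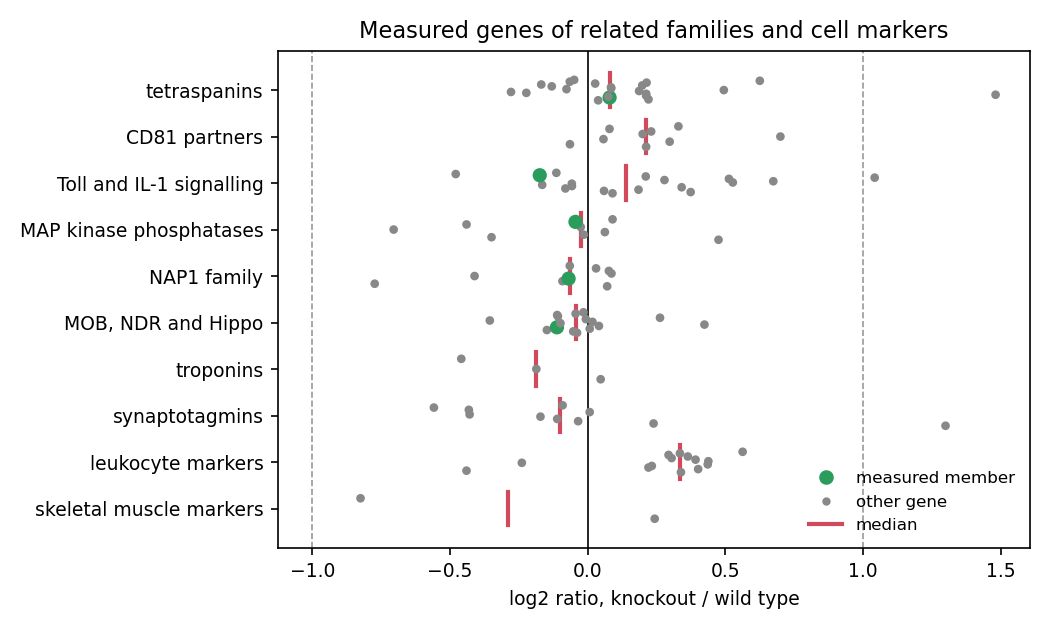
Log2 ratio of knockout to wild type for the measured genes of 10 related lists (1 point per gene, large green points for members, red bars for list medians, dashed lines at 2-fold). The medians of the leukocyte list (0.34) and of the CD81 partners (0.21) lie highest, and members lie between -0.17 and 0.08 in their lists.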

How the data were processed

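The 2 ovary libraries were compared from the counts per gene symbol that the authors deposited. The submitters' processing notes list DESeq2 1.0.0, Cufflinks 2.2.1, STAR 2.5.0a and the build mm10, with no role for any. How reads were counted and whether strand was used is not given in the sources used here. Reads of genes that overlap on opposite strands can therefore not be told apart. Median-of-ratios scaling gave equal library sizes (a log2 factor of 0), and genes with counts in both libraries had a median ratio of 1, although totals differed. Values already normalised by the authors would give this. Every whole number up to 526 occurs in the wild-type column, and up to 936 in the knockout column. Normalisation and rounding before deposit was not settled, and if it took place the counting intervals are approximate.

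Scaling by TMM (edgeR 4.0.16) was fitted on all 24421 rows. For log2 ratios, 0.5 was added to each scaled count. Intervals are exact conditional binomial (Clopper-Pearson) 95% intervals of the ratio and exact Poisson intervals of single counts, and 3 counts were allowed for a count of 0. GENCODE M21 gave positions for 23309 rows. The members, lists and rules were chosen with earlier results of these data known. Named genes were the 10 members, window genes beyond 2-fold or nearest to H19 or a member, and from each list up to 4 of highest mean and any beyond 2-fold. Alternatives were other scalings (DESeq2 1.42.0 for median of ratios), added counts, filters, limits, windows and summaries. The interval script was tested on simulated data. Python 3.11.15, scipy 1.17.1 and R 4.3.3 were used.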

Additional observations from a re-analysis of the deposited data

How the results depend on the processing

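Under 3 other scalings and with 5 added to each count, all 36 member ratios stayed inside their intervals, and those with an interval on 1 side of 0 kept their sign. The scalings hardly differed, with log2 ratios of library size from -0.018 (total count) to 0 (median of ratios), beside -0.008 for TMM. They could therefore move a member ratio only slightly. All 17 counts of members under the alternatives stayed within 1.5 times the reported number, with 0 beyond 2-fold at a limit of 1.5-fold and by the point ratio. With no low count filter 3 members lay above 0, since Tnnt3 was then counted. The median of the measured members ranged from -0.09 to -0.05. The median of genes within 1 Mb of H19 (-0.03) turned in sign with no low count filter (0.0288), as a mean (0.0701), in a window of 0.5 Mb (0.148) and in a window of 2 Mb (0.0357), where other genes enter. No paired analysis was possible because there was 1 library for wild type and 1 for knockout, and no replicate could be left out. Depth limits Tnnt3, Tspan32 and Syt8, with fewer than 20 counts in each library.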
